A study of Homo sapiens with 8 samples.

Results

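CHOP, the transcription factor encoded by DDIT3, and genes that act beside it in the death branch of the stress response were examined in 2 cultured lines of human multiple myeloma, MM1.S and NCI-H929. The 10 listed genes were DDIT3, TRIB3, ATF3, ATF5, CEBPB, CEBPG, CHAC1, NUPR1, TNFRSF10B and GDF15, matched by symbol in the platform annotation. Of these, 5 had a named row, namely DDIT3, TRIB3, ATF3, ATF5 and GDF15, among 14884 named genes. All 5 were among the 12734 genes bright enough to be tested. CEBPB, CEBPG, CHAC1, NUPR1 and TNFRSF10B were not analysed here. The row of each gene was chosen by its mean log2 level over the arrays, but each of the 5 had 1 row, so that level decided nothing. The list was drawn up with earlier results of these arrays known, so the number of its genes that changed is a description and no evidence about the branch as a whole.

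Each line carried either a scramble hairpin, the control, or a hairpin against SIRT6 (shSIRT6, spelled shSITR6 in the sample titles). SIRT6 is an NAD-dependent deacetylase of chromatin. There were 4 groups of 2 arrays: MM1.S with scramble, MM1.S with shSIRT6, NCI-H929 with scramble and NCI-H929 with shSIRT6, all grown in the same medium with no drug named, and hybridised to Affymetrix Human Gene ST arrays. The sources used here do not say how the hairpins were delivered, how many were used, how long after delivery RNA was taken, or whether the cells were clones. Nor do they say whether both arrays of a group come from separate cultures, and the p-values below may measure technical spread alone.

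In the integrated stress response, kinases that sense amino acid shortage or misfolded protein phosphorylate the translation factor eIF2, which lowers general translation but raises that of ATF4. ATF4 induces DDIT3, and the factors together turn on genes that restore amino acids or, when stress persists, genes that favour death. Plasma cells, and many myeloma cells, secrete large amounts of immunoglobulin.

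Start sites of DDIT3, TRIB3 and ATF3, whose measured differences had opposite signs in the lines (only DDIT3 passed the test in both), are printed, 1 window per gene, because ATF4 and C/EBP factors bind short elements near the starts of such genes. The windows run from 250 bases before to 50 bases after the start, from RefSeq, build GRCh38.p14, where 8 of the 10 genes had 16 windows in all. They are chr12:57520465-57520764 on the minus strand for DDIT3, chr20:381045-381344 on the plus strand for TRIB3 and chr1:212565157-212565456 on the plus strand for ATF3. Capitals mark matches on either strand to the composite C/EBP-ATF element TGATGNAA (TTNCATCA on the other strand) or to the CCAAT box (ATTGG on the other strand). The palindromic cyclic AMP response element TGACGTCA was also searched.
DDIT3: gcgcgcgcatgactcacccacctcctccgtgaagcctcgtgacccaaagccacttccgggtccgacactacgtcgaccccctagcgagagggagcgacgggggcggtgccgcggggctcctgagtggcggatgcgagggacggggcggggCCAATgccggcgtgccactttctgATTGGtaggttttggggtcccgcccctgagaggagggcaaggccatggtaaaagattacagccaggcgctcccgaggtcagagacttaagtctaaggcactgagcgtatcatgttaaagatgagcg
TRIB3: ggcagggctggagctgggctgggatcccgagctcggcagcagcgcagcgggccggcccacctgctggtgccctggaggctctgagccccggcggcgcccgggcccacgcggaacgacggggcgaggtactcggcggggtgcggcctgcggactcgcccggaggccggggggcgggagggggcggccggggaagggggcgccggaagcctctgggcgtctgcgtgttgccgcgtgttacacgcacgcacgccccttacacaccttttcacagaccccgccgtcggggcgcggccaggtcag
ATF3: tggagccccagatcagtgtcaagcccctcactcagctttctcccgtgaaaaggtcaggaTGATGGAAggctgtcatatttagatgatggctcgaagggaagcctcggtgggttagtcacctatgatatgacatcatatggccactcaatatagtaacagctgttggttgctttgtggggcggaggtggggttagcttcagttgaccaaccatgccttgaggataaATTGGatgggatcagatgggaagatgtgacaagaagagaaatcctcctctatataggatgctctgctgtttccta
The ATF3 window printed held 1 composite match, starting at −191 from the start site, and 1 CCAAT box, and the other ATF3 window, chr1:212614768-212615067, held 0 of the motifs. The DDIT3 window held 2 CCAAT boxes and 0 composite matches. In the TRIB3 window 0 of the motifs were found, and in the ATF5 windows also 0. Over the 16 windows, 3 held the composite element, 8 a CCAAT box and 0 the cyclic AMP response element, where 3.62%, 34.6% and 1.84% of all 34943 windows did. The windows with the composite element were of ATF3, CHAC1 and CEBPG, and of these genes only ATF3 was measured. Some windows of one gene overlap, as those of DDIT3, TRIB3 and CEBPB do, so 1 match can count more than once. A match describes letters and is no binding site, and other parts of these genes were not searched.

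SIRT6 was lower on both shSIRT6 arrays of each line, without passing the test in either (limma, adjusted p = 0.355 and 0.276). SIRT6 read 6.09 and 5.88 (log2) under scramble and 5.60 and 5.78 under shSIRT6 in MM1.S. In NCI-H929 the values were 6.53 and 6.97, then 6.25 and 6.31. Of 10 plasma cell markers 7 were named, with a mean log2 level of 9.37 to 9.69 over the 8 arrays. The mean levels were 4.16 to 4.95 for 7 of 12 T and NK cell markers, 3.57 to 3.83 for 7 of 10 monocyte and macrophage markers and 4.34 to 4.80 for 5 of 9 stromal markers. They were 3.44 to 3.75 for 2 of 7 B cell markers and 5.03 to 5.50 for 4 of 5 epithelial markers. In such whole-culture RNA, fewer cells with a transcript and less of it per cell cannot be told apart.

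DDIT3 fell with shSIRT6 in MM1.S and rose in NCI-H929. Its product CHOP belongs to the C/EBP family and promotes death when stress is not resolved. On the MM1.S arrays DDIT3 read 6.72 and 6.64 (log2) under scramble and 5.34 and 5.63 under shSIRT6. On the NCI-H929 arrays it read 5.23 and 5.14 under scramble and 6.43 and 6.53 under shSIRT6. The shSIRT6 arrays lay below both scramble arrays in MM1.S and above both in NCI-H929. The log2 difference, shSIRT6 minus scramble, was −1.195 ± 0.12 (SE; 95% confidence interval −1.48 to −0.91) in MM1.S, which is 2.29-fold lower (limma, Benjamini-Hochberg adjusted p = 0.0107). In NCI-H929 it was 1.295 ± 0.12 (1.01 to 1.58), or 2.45-fold higher (limma, adjusted p = 0.0484). Among 12734 differences it was the 23rd lowest in MM1.S and the 4th highest in NCI-H929.

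By group mean, DDIT3 was highest in MM1.S with scramble (6.68 ± 0.057, SD, n = 2), then in NCI-H929 with shSIRT6 (6.48 ± 0.071), MM1.S with shSIRT6 (5.485 ± 0.21) and NCI-H929 with scramble (5.185 ± 0.064). The line with more DDIT3 under scramble thus had less of it under shSIRT6. The upper neighbours in this order differed by 0.20, against 0.10 at most between arrays of either group. The lower neighbours differed by 0.30, hardly more than the 0.29 between the shSIRT6 arrays of MM1.S.

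**Figure D1:**
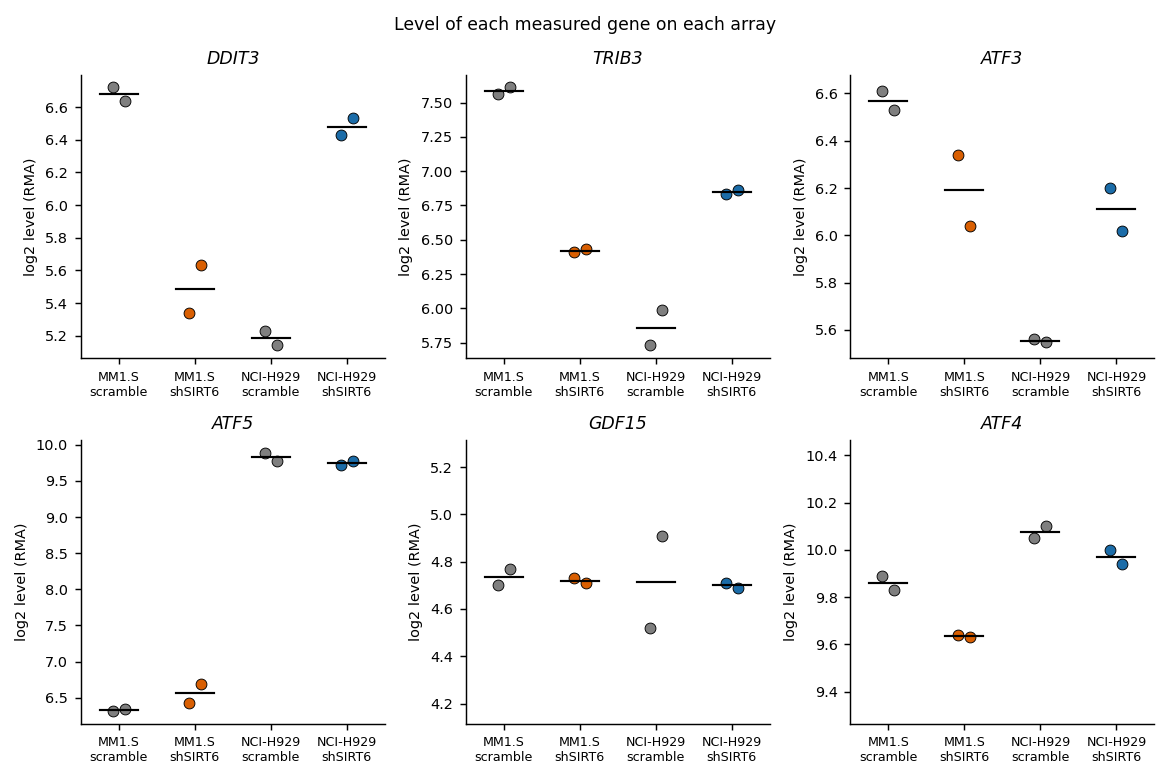
Log2 level (vertical axis, own range in each panel) of the 5 measured genes and ATF4 by group; points are the 8 arrays and horizontal lines are means of 2 arrays. DDIT3 goes from 6.68 to 5.485 in MM1.S and from 5.185 to 6.48 in NCI-H929, the means of TRIB3 and ATF3 move in the same directions, ATF5 separates the lines, and GDF15 has overlapping groups.

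TRIB3 had the same arrangement, but only its fall in MM1.S passed the test. It is a pseudokinase that ATF4 and CHOP induce and that binds AKT. On the MM1.S arrays TRIB3 read 7.56 and 7.61 (log2) under scramble and 6.41 and 6.43 under shSIRT6. On the NCI-H929 arrays it read 5.73 and 5.99 under scramble and 6.83 and 6.86 under shSIRT6. Again the arrays of the constructs did not overlap in either line, and the scramble arrays of NCI-H929 were the farthest apart. TRIB3 was 2.24-fold lower with shSIRT6 in MM1.S (log2 difference −1.165 ± 0.11, SE; −1.43 to −0.90; limma, adjusted p = 0.00954). In NCI-H929 the log2 difference was 0.985 ± 0.11 (0.72 to 1.25; limma, adjusted p = 0.105), the 12th highest of all tested genes yet not called. Its group means had the order seen for DDIT3, 7.585, 6.845, 6.42 and 5.86, and every neighbouring pair differed by more than the range within either group.

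ATF3, a stress-induced factor of the ATF family, differed less and passed in neither line. On the MM1.S arrays ATF3 read 6.61 and 6.53 (log2) under scramble and 6.34 and 6.04 under shSIRT6. On the NCI-H929 arrays it read 5.56 and 5.55 under scramble and 6.20 and 6.02 under shSIRT6. The arrays of the constructs were separate in both lines. The log2 difference was −0.38 ± 0.13 (SE; −0.68 to −0.08) for MM1.S and 0.555 ± 0.13 (0.26 to 0.85) for NCI-H929 (limma, adjusted p = 0.170 and 0.196). Under shSIRT6 the means of 6.19 in MM1.S and 6.11 in NCI-H929 differed by less than the 0.30 between the MM1.S arrays.

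ATF5, a relative of ATF4 whose translation also rises under stress, differed between the lines, while its differences between constructs did not pass. On the MM1.S arrays ATF5 read 6.32 and 6.34 (log2) under scramble and 6.43 and 6.69 under shSIRT6. On the NCI-H929 arrays it read 9.89 and 9.77 under scramble and 9.72 and 9.78 under shSIRT6. In MM1.S the shSIRT6 arrays lay above both scramble arrays, and in NCI-H929 the arrays overlapped. The log2 difference was 0.23 ± 0.12 (SE; −0.04 to 0.50) for MM1.S and −0.08 ± 0.12 (−0.35 to 0.19) for NCI-H929, and neither passed (limma, adjusted p = 0.319 and 0.779).

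GDF15, a secreted cytokine induced by many stresses, had overlapping arrays in both lines. On the MM1.S arrays GDF15 read 4.70 and 4.77 (log2) under scramble and 4.73 and 4.71 under shSIRT6. On the NCI-H929 arrays it read 4.52 and 4.91 under scramble and 4.71 and 4.69 under shSIRT6. Its scramble arrays in NCI-H929 were farther apart than any difference between groups. The log2 difference was −0.015 ± 0.13 (SE) in each line, with an interval of −0.33 to 0.30, which leaves room for changes of that size (limma, adjusted p = 0.966 and 0.972).

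Of the 5 genes, 2 were called lower in MM1.S, where 1.12% of all tested genes were called lower and 0.204% higher. In NCI-H929 1 was called higher, DDIT3, where 0.0157% of all genes were called higher and 0.00785% lower. That share called higher is 2 genes, DDIT3 itself and SESN2. Arrays without overlap were common among all genes, 26.3% lower and 24.4% higher in MM1.S, and 30.0% lower and 16.6% higher in NCI-H929. Of the 5 genes 3 were lower and 1 higher without overlap in MM1.S, and 3 were higher in NCI-H929. Their median log2 difference was −0.38 in MM1.S and 0.555 in NCI-H929, against 0.005 and −0.045 over all tested genes.

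Calls were lost when single arrays were left out, while the sizes moved little. Such fits also leave fewer residual degrees of freedom. In MM1.S DDIT3 and TRIB3 both lost their calls without scramble replicate 1 (−1.155 and −1.19), scramble replicate 2 (−1.235 and −1.14), shSIRT6 replicate 1 (−1.05 and −1.155) or shSIRT6 replicate 2 (−1.34 and −1.175) of that line (limma, adjusted p from 0.0634 to 0.115). In NCI-H929 the call of DDIT3 was lost in 14 of 16 other settings, including each that left out 1 of the 8 arrays, with differences from 1.245 to 1.345.

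**Figure D2:**
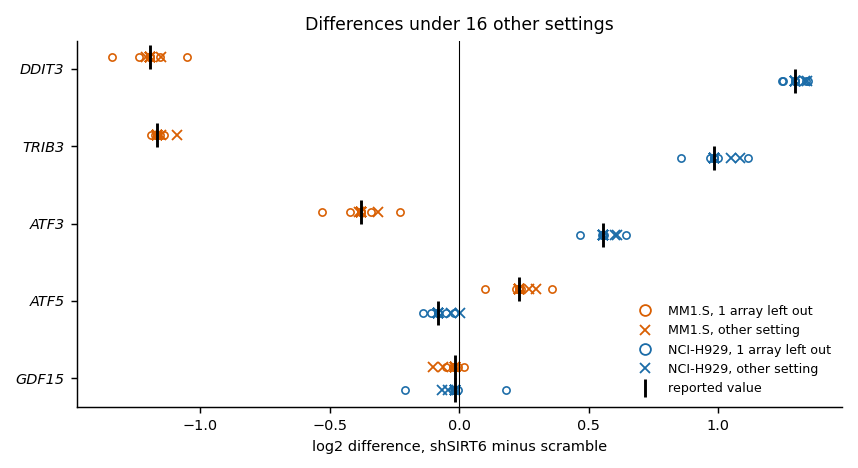
Log2 difference, shSIRT6 minus scramble (horizontal axis), of the 5 measured genes as reported (bars), with 1 array left out (circles) and under the other settings (crosses), for MM1.S and NCI-H929 in separate colours. DDIT3 stays between −1.34 and −1.05 in MM1.S and between 1.245 and 1.345 in NCI-H929, whereas GDF15 lies on both sides of 0.

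The difference between the lines in the effect of shSIRT6 was tested directly, as the effect in NCI-H929 minus that in MM1.S. It was 2.49 ± 0.17 (SE; 2.09 to 2.89) on the log2 scale for DDIT3 and 2.15 ± 0.16 (1.78 to 2.52) for TRIB3 (limma, Benjamini-Hochberg adjusted p = 0.00447 and 0.00497). These were the 2nd and 8th highest of 12734 values, and 0.196% of tested genes were called higher and 0.00785% lower. The value for ATF3, 0.935 ± 0.18 (0.51 to 1.36), did not pass (limma, adjusted p = 0.116). For ATF5 it was −0.31 ± 0.16 and for GDF15 0.00 ± 0.19 (limma, adjusted p = 0.444 and 1.00). The call of DDIT3 was lost without shSIRT6 replicate 2 of NCI-H929 (2.44; limma, adjusted p = 0.0528). The call of TRIB3 was lost without scramble replicate 2 (2.125), shSIRT6 replicate 1 (2.14) or shSIRT6 replicate 2 (2.16) of MM1.S, or shSIRT6 replicate 1 (2.165) or 2 (2.135) of NCI-H929 (limma, adjusted p from 0.0516 to 0.0562).

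**Figure D3:**
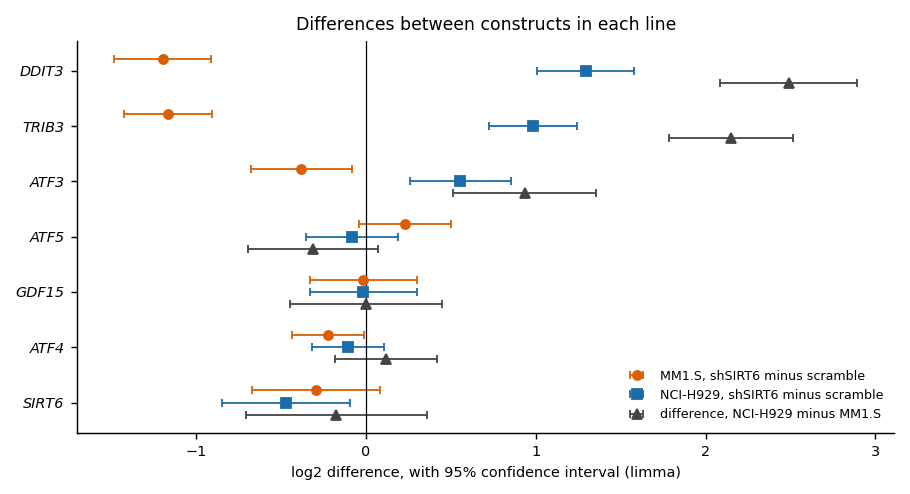
Log2 differences with 95% confidence intervals from limma (horizontal axis) for the 5 measured genes, ATF4 and SIRT6: the effect of shSIRT6 against scramble in MM1.S and in NCI-H929, and the NCI-H929 effect minus the MM1.S effect. The intervals of DDIT3, TRIB3 and ATF3 lie below 0 in MM1.S and above 0 in NCI-H929, and those of GDF15 span 0 in all 3.

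Under scramble, on the control arrays used above, 4 of the 5 genes already differed between the lines. DDIT3 was 2.82-fold lower in NCI-H929 than in MM1.S (log2 difference −1.495 ± 0.12, SE), TRIB3 3.31-fold lower (−1.725 ± 0.11) and ATF3 2.02-fold lower (−1.015 ± 0.13). ATF5 was 11.3-fold higher (3.50 ± 0.12), the 39th highest of all tested genes. The adjusted p (limma) ran from 1.45e-06 for ATF5 to 0.000631 for ATF3, and GDF15 did not pass (−0.02 ± 0.13, adjusted p = 0.927). Such calls were frequent, with 18.3% of all tested genes lower and 20.0% higher in NCI-H929.

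Under shSIRT6 the order of the lines was the opposite for DDIT3, which was 1.99-fold higher in NCI-H929 (0.995 ± 0.12, SE), and for TRIB3 (0.425 ± 0.11; limma, adjusted p = 0.000549 and 0.0194). The call of TRIB3 was lost without either shSIRT6 array of either line (0.41 to 0.44). ATF5 was again higher (3.19 ± 0.12; limma, adjusted p = 2.23e-06), so 3 of the 5 were called higher where 18.4% of all genes were and 19.5% were called lower. ATF3 and GDF15 did not pass (−0.08 ± 0.13 and −0.02 ± 0.13; limma, adjusted p = 0.673 and 0.928).

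ATF4, which induces DDIT3 and is itself controlled largely by translation, which arrays do not read, passed the test in neither line. ATF4 read 9.89 and 9.83 (log2) under scramble and 9.64 and 9.63 under shSIRT6 in MM1.S. In NCI-H929 the values were 10.05 and 10.10, then 10.00 and 9.94. Both shSIRT6 arrays lay below both scramble arrays in each line, also in NCI-H929, where DDIT3 was higher. The log2 differences were −0.225 ± 0.091 (SE) and −0.105 ± 0.091 (limma, adjusted p = 0.233 and 0.621), and the MM1.S value passed in 1 of 16 other settings.

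Of the other groups of the pathway, upstream genes of the response were tested for 8 of 16 symbols, with 0 called in each line (limma; 3 in MM1.S and 0 in NCI-H929 at an unadjusted p below 0.05). At that unadjusted limit 11.3% of all genes were lower and 8.25% higher in MM1.S, and 9.75% lower and 4.74% higher in NCI-H929. EIF2AK4 encodes GCN2, the kinase that senses uncharged tRNA. EIF2AK4 read 7.46 and 7.45 (log2) under scramble and 6.89 and 6.87 under shSIRT6 in MM1.S. In NCI-H929 the values were 6.96 and 6.90, then 6.92 and 6.69. Its difference in MM1.S, −0.575 ± 0.11 (SE), just missed the threshold (limma, adjusted p = 0.0550) and passed in 2 of 16 other settings.

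Other targets of ATF4 and CHOP were tested for 25 of 39 symbols. In MM1.S 15 of 25 were called lower and 0 higher (limma), against 1.12% and 0.204% of all tested genes. By sign, 19 differences were negative and 6 positive, with a median log2 difference of −0.71. In NCI-H929 1 was called higher, SESN2, and 0 lower, against 0.0157% and 0.00785% of all tested genes. There 15 differences were positive and 10 negative, with a median of 0.025. The list was made with the fall of some of these genes in MM1.S already known. Its count in MM1.S became 0 without scramble replicate 1, scramble replicate 2 or shSIRT6 replicate 2 of that line, 3 without shSIRT6 replicate 1, and 6 without scramble replicate 1 or 2 of NCI-H929.

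SESN2 and DDIT4, both of which restrain mTORC1, had shSIRT6 arrays below the scramble arrays in MM1.S and above them in NCI-H929, though the order of their 4 group means was not that of DDIT3. SESN2 read 8.23 and 8.25 (log2) under scramble and 7.02 and 7.05 under shSIRT6 in MM1.S. In NCI-H929 the values were 7.81 and 7.67, then 8.71 and 8.83. DDIT4 read 6.90 and 6.86 (log2) under scramble and 5.52 and 5.39 under shSIRT6 in MM1.S. In NCI-H929 the values were 9.16 and 9.10, then 9.91 and 9.82. The fall of SESN2 in MM1.S was −1.205 ± 0.10 (SE) and its rise in NCI-H929 1.03 ± 0.10 (limma, adjusted p = 0.00599 and 0.0484), the second call being lost in 14 of 16 other settings. DDIT4 fell in MM1.S (−1.425 ± 0.098) and did not pass in NCI-H929 (0.735 ± 0.098; limma, adjusted p = 0.00377 and 0.158). ASNS, asparagine synthetase, fell in MM1.S by 1.31 ± 0.092 and had 0.115 ± 0.092 in NCI-H929 (limma, adjusted p = 0.00377 and 0.596). SARS1, seryl-tRNA synthetase, fell in MM1.S by 1.21 ± 0.092 and had 0.005 ± 0.092 in NCI-H929 (limma, adjusted p = 0.00452 and 0.989). The MM1.S calls of these 4 genes were lost without either scramble array of that line or without its shSIRT6 replicate 2, and that of SESN2 was also lost without shSIRT6 replicate 1.

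**Figure D4:**
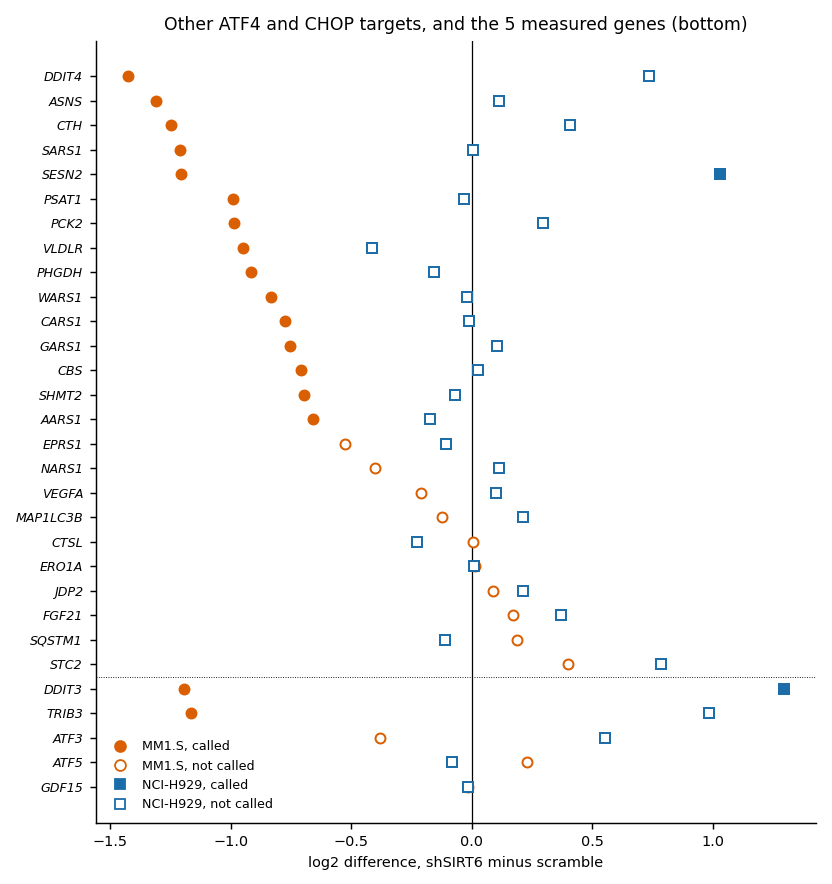
Log2 difference, shSIRT6 minus scramble (horizontal axis), of the 25 tested other targets of ATF4 and CHOP and of the 5 measured genes, in MM1.S (circles) and NCI-H929 (squares); filled symbols passed an adjusted p of 0.05. In MM1.S 15 of the 25 are filled and lie below 0, and in NCI-H929 SESN2 is the 1 filled target.

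Genes that carry out death downstream of CHOP were not called in the reported fit, though PMAIP1 and BAK1 passed in MM1.S in 2 and 1 of 16 other settings. BCL2 family genes were tested for 12 of 13 symbols, with 0 called (limma; 3 in MM1.S and 5 in NCI-H929 at an unadjusted p below 0.05). PMAIP1 encodes NOXA, which promotes apoptosis. PMAIP1 read 6.98 and 6.59 (log2) under scramble and 5.87 and 5.99 under shSIRT6 in MM1.S. In NCI-H929 the values were 4.99 and 5.0, then 5.76 and 5.45. Its arrays separated in the directions seen for DDIT3, with differences of −0.855 ± 0.16 (SE) and 0.61 ± 0.16 (limma, adjusted p = 0.0550 and 0.213). BCL2A1, a survival protein, had a log2 difference of −0.525 ± 0.10 in NCI-H929, and BAK1, which opens the mitochondrial membrane, 0.39 ± 0.093 in MM1.S (limma, adjusted p = 0.185 and 0.0893). BAX and BMF had −0.325 ± 0.10 and −0.33 ± 0.13 in NCI-H929 (limma, adjusted p = 0.262 and 0.324). At the unadjusted limit 2 genes of the list were higher and 3 lower in NCI-H929. BCL2L1 had 0.335 ± 0.093 in MM1.S (limma, adjusted p = 0.121) and passed in 1 of 16 other settings.

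The death receptor pathway, which TNFRSF10B belongs to, was tested for 5 of 17 symbols, with 0 called (limma; 2 in MM1.S and 1 in NCI-H929 at an unadjusted p below 0.05). CFLAR, which blocks activation of caspase-8, had log2 differences of −0.49 ± 0.13 (SE) for MM1.S and −0.34 ± 0.13 for NCI-H929 (limma, adjusted p = 0.119 and 0.320). The MM1.S value of CFLAR passed in 1 of 16 other settings. Targets of p53, which also induces GDF15, were tested for 10 of 20 symbols, with 0 called (limma; 3 in MM1.S and 2 in NCI-H929 at an unadjusted p below 0.05). PLK3, a stress kinase, had log2 differences of 0.445 ± 0.13 and −0.65 ± 0.13, opposite in sign to DDIT3 in each line (limma, adjusted p = 0.134 and 0.185).

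The TRIB family and its AKT partners were tested for 5 of 7 symbols, with 0 called (limma; 0 in MM1.S and 1 in NCI-H929 at an unadjusted p below 0.05). TRIB2, a relative of TRIB3, had a log2 difference of −0.27 ± 0.10 (SE) in NCI-H929 (limma, adjusted p = 0.313). The bZIP factors that can pair with CHOP or ATF3 were tested for 22 of 30 symbols, with 0 called (limma; 5 in MM1.S and 3 in NCI-H929 at an unadjusted p below 0.05). JUNB, a subunit of AP-1, had log2 differences of 0.465 ± 0.10 and −0.33 ± 0.10 (limma, adjusted p = 0.0754 and 0.254). Of 7 listed C/EBP family genes, DDIT3 was the 1 tested.

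The IRE1 and ATF6 arms of the unfolded protein response were tested for 13 of 25 symbols. In MM1.S 1 was called lower (limma), against 1.12% of all tested genes. At an unadjusted p below 0.05, 5 were lower there, against 11.3% of all genes. In NCI-H929 0 were called (limma; 3 at an unadjusted p below 0.05). The gene called in MM1.S was SEL1L, of the machinery that degrades misfolded protein (−0.535 ± 0.093, SE; limma, adjusted p = 0.0455), and the call was lost in 13 of 16 other settings. Partners of NUPR1 and autophagy genes were tested for 7 of 8 symbols, with 1, TXNIP, called lower in MM1.S, against 1.12% of all tested genes (limma; 2 lower at an unadjusted p below 0.05). TXNIP, an inhibitor of thioredoxin and glucose uptake, fell in MM1.S (−1.17 ± 0.10; limma, adjusted p = 0.00806), a call lost in 6 of 16 other settings. In NCI-H929 0 were called (limma; 0 at an unadjusted p below 0.05).

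The array also reads MIR616, a microRNA gene that overlaps DDIT3 in RefSeq's annotation of GRCh38.p14 and was looked up after the values of DDIT3 were seen. MIR616 read 5.30 and 5.11 (log2) under scramble and 4.28 and 4.56 under shSIRT6 in MM1.S. In NCI-H929 the values were 4.50 and 4.44, then 5.13 and 4.93. It separated by construct in the same directions as DDIT3, with differences of −0.785 ± 0.13 (SE) and 0.56 ± 0.13 (limma, adjusted p = 0.0454 and 0.204). The MM1.S call was lost in 11 of 16 other settings. Signal from the microRNA precursor and from DDIT3 transcripts cannot be told apart here. MARS1, the methionyl-tRNA synthetase gene that also overlaps DDIT3, had −0.485 ± 0.090 for MM1.S and 0.00 ± 0.090 for NCI-H929 (limma, adjusted p = 0.0550 and 1.00). The MM1.S value of MARS1 passed in 2 of 16 other settings. ATF5 overlaps IL4I1 and GDF15 overlaps MIR3189, 2 genes that were also measured and whose values are not given here.

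The genes most like DDIT3 were ranked by Pearson correlation over the 8 arrays after the mean of each line was subtracted, a description over arrays that share 2 lines and 2 constructs. They were SESN2 (r = 0.987), ERN1 (0.984), ZNF215 (0.983), TRIB3 (0.973), CCDC144BP (0.968), OLFML1 (0.967), RGS16 (0.967) and AJUBA (0.963). ERN1 encodes IRE1, the sensor of another arm of the unfolded protein response. ERN1 read 9.93 and 9.84 (log2) under scramble and 9.43 and 9.42 under shSIRT6 in MM1.S. In NCI-H929 the values were 9.03 and 8.98, then 9.39 and 9.50. Its differences were −0.46 ± 0.095 (SE) and 0.44 ± 0.095 (limma, adjusted p = 0.0683 and 0.191), and they passed in 2 and 1 of 16 other settings. RGS16, a regulator of G protein signalling, fell in MM1.S (−1.035 ± 0.12; limma, adjusted p = 0.0165), a call lost in 8 of 16 other settings, and had 0.76 ± 0.12 in NCI-H929 (adjusted p = 0.177). CCDC144BP is a pseudogene with close copies, so its signal is uncertain, and OLFML1 read close to the lower limit of tested levels. Among the measured genes, r with DDIT3 was 0.880 for ATF3, which ranked 98th of all tested genes, −0.586 for ATF5 and −0.0514 for GDF15.

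**Figure D5:**
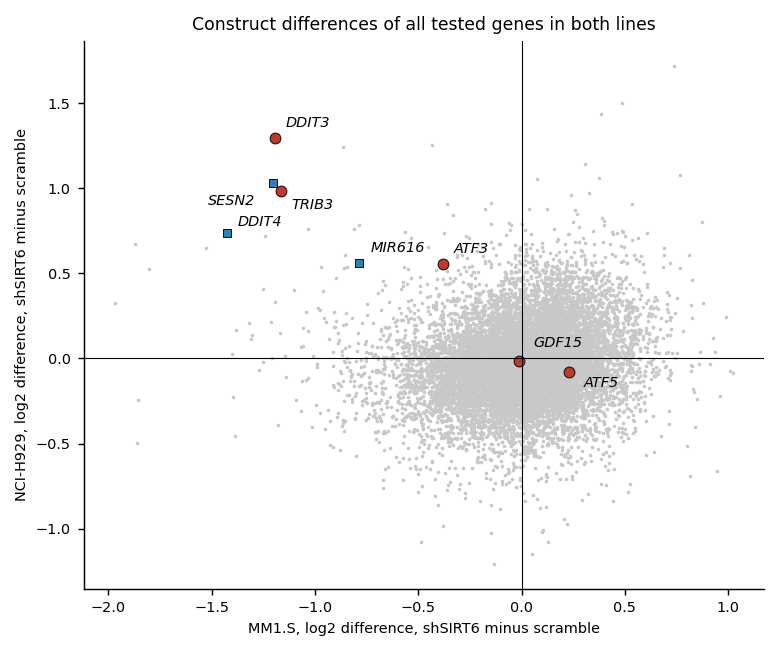
Log2 difference, shSIRT6 minus scramble, in MM1.S (horizontal axis) and NCI-H929 (vertical axis) for all 12734 tested genes (grey), the 5 measured genes (red circles) and SESN2, DDIT4 and MIR616 (blue squares). DDIT3 at −1.195 and 1.295 and TRIB3 at −1.165 and 0.985 lie at the upper left edge beside SESN2, and ATF5 and GDF15 lie within the cloud.

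Mean log2 levels of 3 marker lists of other cell types were higher on both shSIRT6 arrays than on both scramble arrays in each line. For the T and NK cell markers they were 4.16 to 4.20 under scramble and 4.22 to 4.30 under shSIRT6 in MM1.S. In NCI-H929 they were 4.68 to 4.73 and 4.87 to 4.95, where the summed linear level was 557 to 570 and 452 to 569. Differences in NCI-H929 were positive for 6 of these markers and negative for NCAM1, the brightest (8.84 and 8.83 under scramble, 8.77 and 8.33 under shSIRT6). In MM1.S 5 were positive and 2 negative. For the monocyte and macrophage markers the means were 3.57 to 3.68 and 3.76 to 3.83 in MM1.S, and 3.58 to 3.69 and 3.70 to 3.76 in NCI-H929. These lay below the array medians of 3.88 to 3.97, and LYZ and CD163 of that list were too low to be tested. For the epithelial and 293T markers the means were 5.03 to 5.12 and 5.17 to 5.33 in MM1.S, and 5.09 to 5.14 and 5.15 to 5.50 in NCI-H929. Differences of these epithelial genes were positive for 4 of 4 in both lines. In NCI-H929 the means were lower on both shSIRT6 arrays for the plasma cell markers (9.64 to 9.69 and 9.60 to 9.63) and the B cell markers (3.6 to 3.74 and 3.55 to 3.58). Of the tested genes of these lists and the stromal list, 1 passed the test of the constructs in either line (limma), SDC1, a plasma cell surface proteoglycan named after its value was seen, which rose in MM1.S (0.52 ± 0.091, SE; adjusted p = 0.0461), a call lost in 11 of 16 other settings. The part of these lists in the differences of DDIT3 and TRIB3 was not tested.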

How the data were processed

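Per the submitters' processing notes, the authors made the values with RMA and the Transcriptome Analysis Console on hg19, with no versions named. The deposited values are log2 levels, 1 row per transcript cluster, already normalized between arrays. Without scanner intensities, which were not used here, rows could not be judged against background. Of 48226 rows 16098 had a gene symbol, and 32128 are unnamed here. Array medians ran from 3.88 to 3.97, and the number of arrays limits the precision.

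The row with the highest mean stood for each gene. Genes whose mean exceeded the 30th percentile of rows, 3.045, were tested. All 8 arrays entered 1 limma fit of 4 group means (version 3.58.1, R 4.3.3; 4 residual and 3.43 prior degrees of freedom). P-values were adjusted by Benjamini-Hochberg over 12734 genes and called below 0.05. The smallest exact permutation p for 2 arrays against 2 is 0.333. The code was tested on simulated data.

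The members and lists were chosen with earlier results of these data known. Named are the members, SIRT6, ATF4 and the 8 genes most like DDIT3. From each list, named genes come from up to 4 with the lowest p in each line. They were narrowed after their values were seen to those with an unadjusted p below 0.05, and not all of those are named. MIR616 and MARS1 were picked after values were seen from the measured genes that overlap a member. The 16 alternatives changed normalization, filter, choice of row, variance model, lines per fit or replicate block, or left out 1 array.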

Additional observations from a re-analysis of the deposited data

Results flagged for a closer look

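The effect of shSIRT6 differed between the lines, by a test of the difference itself (NCI-H929 minus MM1.S, log2), for DDIT3 (2.49 ± 0.17, SE), TRIB3 (2.15 ± 0.16), SESN2 (2.235 ± 0.14), CCDC144BP (2.11 ± 0.25) and RGS16 (1.795 ± 0.17). The adjusted p (limma, Benjamini-Hochberg) ran from 0.00386 for SESN2 to 0.0398 for CCDC144BP. In each of these 5 genes both shSIRT6 arrays lay below both scramble arrays in MM1.S and above both in NCI-H929. SESN2, CCDC144BP and RGS16 were picked for their likeness to DDIT3 on the same arrays, so their differences are not independent of it. The call was lost in 9 of 15 other settings for CCDC144BP and 9 of 15 other settings for RGS16, among them every one that left out 1 array, and in 1 of 15 other settings for SESN2, 2 of 15 other settings for DDIT3 and 6 of 15 other settings for TRIB3.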

How the results depend on the processing

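Of 375 recomputed differences of the 5 measured genes, 328 kept their direction and side of the threshold, 38 lost a call, 2 gained a call and 7 changed sign. The 328 include 15 of GDF15 between the lines, whose reported difference of 0 had no direction (−0.195 to 0.195). In MM1.S the 2 calls among them and the 169 over all genes became 0 with each line fitted alone or with the replicate block, and 0 to 2 and 0 to 84 with 1 array left out. The count over all genes was 314 with the filter at the 50th percentile and 948 with trended, robust variances. In NCI-H929 the 1 call and the 3 over all genes became 0 with quantile or cyclic loess normalization, no filter, the mean of rows, each line alone, the replicate block or any 1 array left out, and 2 and 196 with trended, robust variances. For the difference between lines the 2 calls and the 26 over all genes became 0 with the replicate block, and 0 to 2 and 2 to 6 with 1 array left out, and trended, robust variances called 424 genes. Where a count was 0 (limma), 2 to 4 of the 5 genes and 1187 to 2444 of all genes had an unadjusted p below 0.05. The block, separate lines and fewer arrays leave fewer residual degrees of freedom, and a lone array was taken to vary like the other groups. The cause of the other changes was not tested. Between the lines under one construct, 4 and 3 of the 5 were called, and 2 to 4 in all settings that were fitted.

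The sign changed for uncalled values. With 1 array left out, ATF3 between the lines under shSIRT6 ran from −0.23 to 0.07, GDF15 from −0.05 to 0.02 in MM1.S, from −0.21 to 0.18 in NCI-H929 and from −0.215 to 0.175 between the lines under scramble, and the SIRT6 difference between lines from −0.395 to 0.045. ATF5 in NCI-H929 became 0.00267 after cyclic loess.

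Deviations of same-numbered arrays from their group means correlated at 0.0767 in MM1.S and −0.0011 in NCI-H929 across 12734 genes, so the numbers were not taken as pairs. With the replicate block the adjusted p (limma) was 0.113 for DDIT3 and 0.0876 for TRIB3 in MM1.S, and 0.128 and 0.127 for their difference between lines. The block within lines was not fitted to differences between lines under one construct, and separate fits of the lines cannot give such differences.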
